A study of Mus musculus with 4 samples.

Results

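Malat1, Neat1 and the 5 snoRNA host RNAs Gas5, Snhg1, Snhg3, Snhg8 and Snhg12 were examined in single mouse embryonic stem cells (mESC). They were chosen by gene symbol, and all 7 were found among the 32285 genes of the count matrix. Single-cell transcriptomes had been collected with droplet chemistry that reads the 3′ ends of transcripts, from 2 WT samples of the male line E14tg2a.4 and 2 samples of an Srrm2 hKO line. The hKO line is a single gene-trap clone (CG0630), derived from E14tg2a.4, with a heterozygous truncation of Srrm2, which encodes a large protein of nuclear speckles and the spliceosome. Both lines were kept in LIF, which holds mESC in self-renewal, and the labels name serum-free ESGRO culture of 24 h or of 72 h before collection without tying either to a sample, while the study's single-cell methods give another length. The 4 libraries are joined in 1 matrix, where a cell carries a library number from 1 to 4. No source used here ties a number to a label, so libraries are described by number, each as 1 sample, and WT was not compared with Srrm2 hKO.

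Malat1 and Neat1 are long non-coding RNAs made from neighbouring genes and retained in the nucleus. Malat1 gathers in nuclear speckles, the storage sites of splicing factors, and Neat1 is the scaffold around which paraspeckles assemble. The host genes work differently: their introns carry small nucleolar RNAs (snoRNAs), which are released from the excised introns and guide the chemical modification or cleavage of ribosomal RNA. What is left, the spliced host RNA, is exported, engaged by ribosomes and in several cases degraded by nonsense-mediated decay, and many host genes start at a pyrimidine tract like that of ribosomal protein genes. These counts come from polyadenylated RNA read over annotated exons, and the snoRNA genes are not listed, so the host RNA was measured. Of 26 snoRNA entries inside the hosts, 25 also lie in an exon of at least 1 annotated host transcript, so unspliced or intron-retaining host RNA can be counted. No fraction of the cell was separated, so location in the nucleus was not measured. The mature 3′ end of Malat1 also lacks a poly(A) tail, so its counts need not be proportional to its amount. Neat1 has 4 annotated transcripts, of 711 to 20771 bases, that the counts do not separate. A Neat1 level therefore need not be that of the form that scaffolds paraspeckles. Each gene is compared only with itself.

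On GRCm38 (GENCODE M21), Malat1 lies at chr19:5795690-5802672 and Neat1 at chr19:5824708-5845478, both on the minus strand. Gas5 is at chr1:161034422-161038539 and Snhg1 at chr19:8723475-8726443, both on the plus strand, with 10 and 8 annotated snoRNA entries inside them. Snhg3 (chr4:132348014-132353686, minus strand) holds Snora73a and Snora73b, Snhg8 (chr3:123507552-123508404, minus strand) holds Snora24, and Snhg12 (chr4:132308623-132311024, plus strand) holds 5 entries, among them Snora44, Snora61 and Snord99. Of the 1507 snoRNA genes of the annotation, 0 are listed in the matrix. Exons of Snhg3 overlap those of Rcc1 on the same strand and of Gm17300 on the other, and both are listed in the matrix, so the Snhg3 level is uncertain. The other members share no exon with another gene of the matrix.

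The 30 bases around each annotated transcription start (RefSeq, GRCm38.p6, 15 on each side, read on the transcript's strand) are shown because the hosts and Malat1 differ there. Capitals mark a run of at least 5 C or T that begins within 5 bases of the start.
Gas5, chr1:161035151-161035180: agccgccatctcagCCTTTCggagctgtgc
Snhg1, chr19:8723472-8723501: gttgttcttgtcggcctcaTTTTTCCTTgt
Snhg3, chr4:132353672-132353701: tagtcgaccacgcctgaCTTCCgggcgtta
Snhg8, chr3:123508322-123508351: gcaccgttcagaagTCTCTTTggctgcgat
Snhg12, chr4:132308663-132308692: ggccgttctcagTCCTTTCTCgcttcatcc
Malat1, chr19:5802658-5802687: ctccgggctctgcgtcaggcattcaggcag
All 5 hosts had such a run at an annotated start, of 6 bases in Gas5, 9 in Snhg1, 5 in Snhg3, 7 in Snhg8 and 9 in Snhg12. Malat1 had none, and a further annotated start of Gas5 at position 161034601 had none. The length and distance limits were set after these sequences were seen and just include Snhg3 and Snhg1, so the count of 5 hosts follows from them and is no comparison with other genes. With these limits, 23.4% of the 27025 genes with a listed start had a run, as did 41.7% of 60 cytosolic ribosomal protein genes and 2 of 14 other snoRNA host genes.

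Kept cells, those that passed the study's stated limits on depth and on the mitochondrial share, numbered 8118, 8514, 7893 and 7464 in libraries 1 to 4, with 166839268 to 200180473 UMIs (unique molecular identifiers, each 1 counted molecule) per library. Levels are UMIs of a gene scaled to a library total of 1000000 (CPM) with exact 95% Poisson intervals, folds carry exact conditional binomial intervals, and both cover counting error only, not the spread between cultures. The gene disrupted in the hKO line, Srrm2, measured 387, 533, 238 and 356 CPM in turn. In the same order, cytosolic ribosomal protein genes summed to 278864, 246887, 263744 and 257346 CPM. A panel of 10 naive pluripotency genes summed to 1930, 1575, 1402 and 931 CPM, and 10 formative genes to 817, 1342, 1010 and 1788 CPM. Between libraries 160 barcode sequences were shared, 105 of them among kept cells.

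The members did not vary between libraries as 1 group. Gas5, named for its rise in growth-arrested cells, and Snhg1 were high in libraries 1 and 3. Snhg3 and Snhg8 were high in libraries 2 and 4. Snhg12 followed neither split. Whether the class of the hosted snoRNAs goes with these splits was not tested. Malat1 was high in library 4 alone. At least 1.5-fold between the highest and lowest library was reached by 3 of the 7 members, Gas5, Snhg3 and Snhg8, compared with 41.0% of the 11099 genes that had at least 200 counts in every library.

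Malat1 was at 4088, 4209, 4229 and 5157 CPM in libraries 1 to 4, so 3 libraries lay close together and library 4 stood above them by up to 1.26-fold (1.26 to 1.27). Neat1 levels of 35.03, 27.9, 36.1 and 25.2 CPM spanned 1.43-fold (1.37 to 1.49), with libraries 1 and 3 above the others. The neighbouring genes therefore did not share an order, and library 4 had the highest Malat1 and the lowest Neat1 level.

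Gas5 was at 411, 252, 392 and 322 CPM, so that library 1 exceeded library 2 by 1.63-fold (1.61 to 1.65). Snhg1 followed the same split, with 204, 139, 191 and 138 CPM and a range of 1.48-fold (1.46 to 1.51). The opposite split was seen for Snhg3, which hosts the U17 snoRNAs and had 72.0, 123, 77.2 and 125 CPM, spanning 1.73-fold (1.70 to 1.77). Snhg8, the Snora24 host, was at 58.6, 106, 72.0 and 159 CPM. Its 2.72-fold range (2.66 to 2.78) was larger than that of 93.3% of the genes compared, and it ordered all 4 libraries apart. Snhg12, with 114, 122, 88.3 and 112 CPM, was lowest in library 3 and ranged 1.38-fold (1.35 to 1.41). Of the 42 pairs of libraries over the 7 members, 39 had intervals that excluded 1, and the exceptions were Neat1 in libraries 1 and 3 and Snhg1 and Snhg3 in libraries 2 and 4. The summed level of the 5 hosts was 860, 744, 820 and 855 CPM, lowest in library 2, as was Gas5, the host with the highest level. When libraries were scaled by median-of-ratios size factors, which shift log2 levels by 0.13 in library 1 and -0.09 in library 4, Neat1 and Snhg12 became highest in library 1, Snhg3 in library 2, and Neat1 (1.61-fold) and Snhg1 (1.72-fold) passed 1.5-fold as well.

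**Figure D1:**
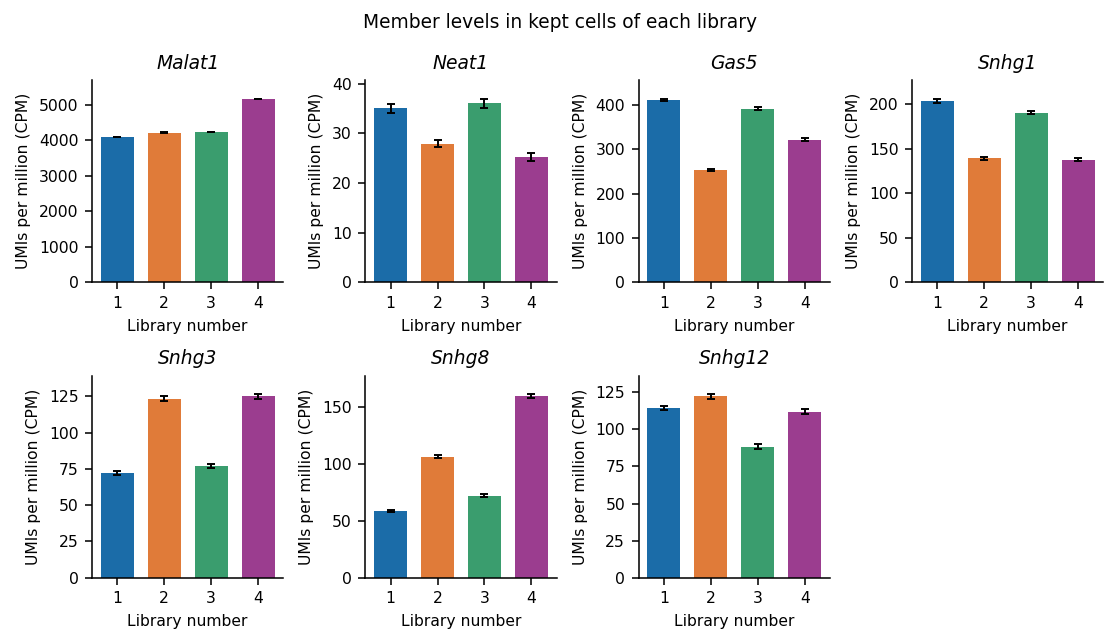
Level of each member in the kept cells of libraries 1 to 4, in CPM, as bars from 0 with exact 95% Poisson intervals for counting error. Gas5 and Snhg1 stand higher in libraries 1 and 3, Snhg3 and Snhg8 in libraries 2 and 4, and Malat1 reaches 5157 CPM in library 4 against 4088 to 4229 CPM in the others.

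Among 16 other snoRNA host genes, 9 differed at least 1.5-fold between libraries, with a median of 1.60-fold over the list against 1.42-fold over all genes compared. The widest were Snhg9 (3.28-fold), Snhg18 (3.002-fold) and Snhg20 (2.32-fold), and the narrowest Snhg17 (1.08-fold), Snhg16 (1.12-fold) and Snhg10 (1.18-fold). Snhg20 was highest in library 1 at 82.4 CPM and lowest in library 4 at 35.5 CPM, while Snhg14 reached 49.1 CPM in library 4 against 22.5 CPM in library 1. Of 11 other nuclear long non-coding RNAs with enough counts, 6 passed 1.5-fold, led by Platr3, Platr10 and Gm26917 at 2.70-, 2.07- and 1.95-fold. Whether the counts of Gm26917, in this and later comparisons, come from such an RNA was not tested. Tug1 was flat at 21.9 to 23.0 CPM. Proteins that work with the members were counted in the same way, beside the 41.0% over all genes. Of 17 snoRNP proteins, which bind and use the snoRNAs, 4 passed 1.5-fold (median 1.18-fold), as did 1 of 16 paraspeckle proteins (1.22-fold) and 3 of 16 nonsense-mediated decay factors (1.33-fold).

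To ask how the members behave in the barcodes that the cell filter removes, these barcodes were split into 3 classes in each library. Low-depth barcodes fell below the library's limit for UMIs or for detected genes, and the UMI limits lay between 5679 and 8261. They were divided at a mitochondrial share of 10%, and barcodes of good depth above 10% made up the third class. A member was called higher or lower when its fold reached 1.5 the same way in all 4 libraries, with at least 200 counts over both classes in each. Barcodes of a library are not replicates, so no p-value was computed.

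Malat1 and Neat1 were higher in both low-depth classes in every library, by 1.76- to 3.63-fold for Malat1 and 1.90- to 3.40-fold for Neat1. These folds are of summed counts, and with the median over barcodes in place of the sum Malat1 lost its call in the low-mitochondrial class (median log2 fold 0.15, and -0.15 in library 2). None of the 5 snoRNA host RNAs was called. In the class with at most 10% mitochondrial UMIs, 1.62% of the 11122 genes compared were called higher and 0.045% lower, and in the class above 10%, 11.7% of 11136 genes were called higher.

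In the low-depth, low-mitochondrial class (389, 781, 613 and 840 barcodes), Malat1 was at 7185 CPM in library 1, 14907 in library 2, 8216 in library 3 and 17350 in library 4. These levels were 1.76-, 3.54-, 1.94- and 3.36-fold those of the kept cells. The lowest of them, in library 1, was above the highest level among kept cells of any library. Neat1 was at 66.7, 91.1, 85.4 and 76.6 CPM, or 1.90-fold (1.54 to 2.33), 3.26-fold (2.73 to 3.87), 2.37-fold (2.03 to 2.74) and 3.03-fold (2.52 to 3.62). Libraries 2 and 4, with the larger folds for both genes, also had the shallower barcodes, with median UMIs of 1235 and 1357 against 3427 and 3516 in libraries 1 and 3. The part of depth in these folds was not tested.

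The host RNAs had smaller folds. Snhg12 came nearest, at 1.67-, 1.70-, 1.30- and 1.5-fold, and library 3 kept it from the call, since without that library it would be the third member called. With a limit 25% above 1 in place of 50%, Malat1, Neat1, Snhg1 and Snhg12 were called, against 6.81% of all genes. Snhg1 was at 1.27-, 1.43-, 1.26- and 1.67-fold and Gas5 at 1.255-, 1.45-, 1.12- and 1.31-fold of the kept cells. Snhg3 was at 0.936-, 1.43-, 1.26- and 1.37-fold and Snhg8 at 0.869-, 1.21-, 1.11- and 1.19-fold, so library 1 alone lay below 1 for both. The median log2 fold was 0.11 over all genes compared and 0.52 over the 16 other host genes, 0 of which were called. Of 11 other nuclear long non-coding RNAs, 4 were called higher, among them Gm26917, Tug1 and Firre, at median log2 folds of 3.27, 1.21 and 1.16. The origin of the Gm26917 counts was not tested, so its call need not be that of a nuclear RNA. No snoRNP protein (of 17), paraspeckle protein (17) or decay factor (16) was called. Ribosomal protein genes had a median log2 fold of -0.10. Of the markers of other cells, the 6 two-cell-like genes (at 0.506 to 3.31 CPM in kept cells) had summed log2 folds of 5.50, 1.71, 5.14 and 2.58 with 0 genes at 200 counts. The 6 keratin and contractile genes had sums of 2.91, 0.96, 0.01 and 0.13, and 1 of the 5 with enough counts was called higher. The part of these markers was not tested.

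In the low-depth, high-mitochondrial class (969, 2064, 1106 and 1595 barcodes), the Malat1 folds were closer together. Malat1 was at 13055, 13909, 12944 and 18727 CPM, or 3.19-, 3.30-, 3.06- and 3.63-fold. Neat1 reached 85.5, 78.5, 123 and 84.5 CPM, or 2.44-, 2.81-, 3.40- and 3.35-fold. Both lay above the level of kept cells of every library. Over the same comparison all 5 keratin and contractile genes with enough counts were called lower, with summed log2 folds of -1.78, -1.38, -3.17 and -2.23, and their part was not tested.

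Snhg3 followed at 1.68-, 1.47-, 1.86- and 1.52-fold, held from the call by library 2. It was called with mitochondrially encoded and ribosomal protein genes left out of the totals, and at the 25% limit, against 22.0% of genes. Snhg12 was at 1.17-, 1.72-, 1.47- and 1.77-fold. Gas5 and Snhg1 differed in direction between libraries, with 0.651- and 0.731-fold in library 1 and 1.06- and 1.37-fold in library 4, and Snhg8 was near 0.9 in all, from 0.894- to 0.923-fold. Of the 78 ribosomal protein genes with enough counts, 56 were called lower (median log2 fold -0.88), where 7.85% of all genes were. The median mitochondrial share of this class was 19.0 to 30.6% and the median ribosomal protein share 11.8 to 15.2%, compared with 24.6 to 28.0% in kept cells. Of 11 other nuclear long non-coding RNAs, 7 were called higher (median log2 fold 1.13), led by Gm26917, Tug1 and Firre at 1.69, 1.62 and 1.39, with Platr3, Platr10 and Lncenc1 lowest at -0.08, 0.13 and 0.50. The origin of the Gm26917 counts was not tested here either. Among other host genes 6 of 16 were called higher, led by Mir17hg, Snhg11 and Snhg14 (median log2 folds of 1.69, 1.15 and 1.07), while Epb41l4aos, Snhg18 and Snhg6 had the lowest values, at -0.77, -0.62 and -0.39. Of 17 snoRNP proteins, 4 were called lower (median log2 fold of the list -0.36), among them Nhp2 (-1.20), Nolc1 (-0.87) and Znhit3 (-0.80). Of 17 paraspeckle proteins 2 were called higher, among them Cpsf6 (0.87), and 1 lower, Nudt21 (-0.82), and of 16 decay factors Smg1 (0.91) and Smg5 (0.89) were higher and Magoh (-0.87) lower.

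Barcodes of good depth with a high mitochondrial share were few, at 59, 377, 85 and 275. Malat1 was the 1 member called there, at 1.70-, 3.07-, 1.94- and 3.54-fold, in a comparison where 1.81% of 11102 genes were called higher and 0.558% lower. At the 25% limit Snhg3 joined it, against 6.75% of genes. Summed log2 folds were -0.18, -0.57, -0.31 and -0.65 for ribosomal protein genes and 1.85, -1.52, -4.18 and -2.11 for keratin and contractile genes, of which 1 of 5 was called lower, and their part was not tested. Neat1 was at 1.07-fold (0.725 to 1.52) in library 1, on 31 counts, and at 2.46-, 1.85- and 3.19-fold in the other libraries. Without library 1, Neat1 and Snhg3 would join Malat1, and Snhg3 was at 1.29-, 1.65-, 2.06- and 1.91-fold over the 4 libraries. Snhg1 in library 3 stood out on the low side at 0.585-fold (0.476 to 0.713).

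**Figure D2:**
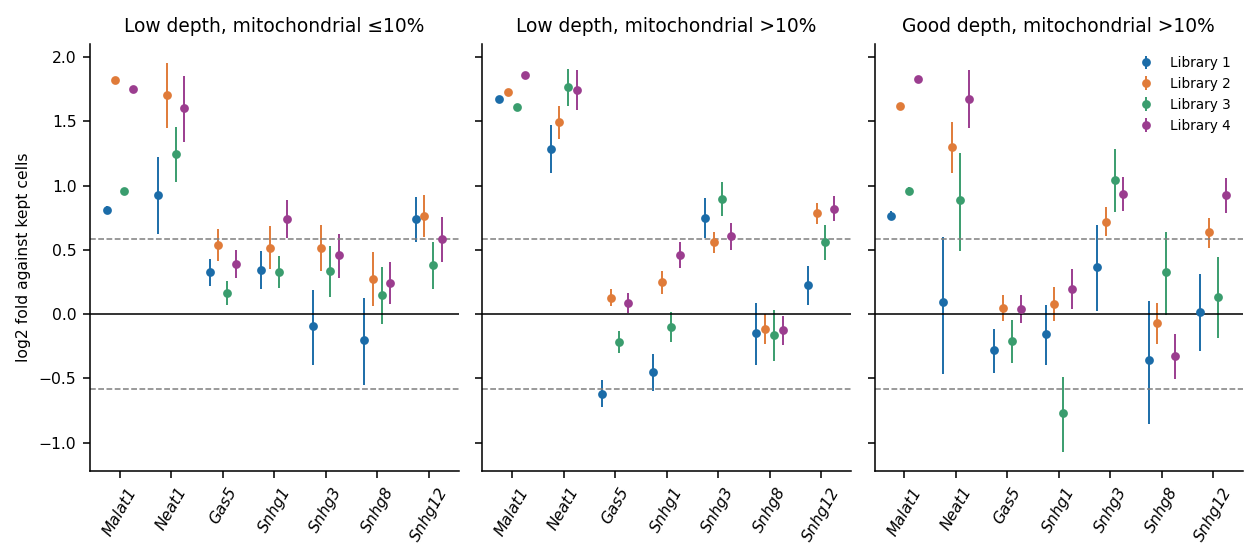
Log2 fold of each member in 3 classes of removed barcodes against the kept cells of the same library, with 95% intervals for counting error and dashed lines at 1.5-fold. Malat1 and Neat1 lie above the upper line in all 4 libraries of both low-depth classes, while each of the 5 host RNAs has at least 1 library inside the lines.

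The pooled levels hid a split among the low-depth, low-mitochondrial barcodes. Over barcodes with at least 500 UMIs, the median Malat1 level was 4135, 3292, 4077 and 4479 CPM, close to the 3534, 3593, 3475 and 4202 CPM of kept cells. Over all barcodes of the class, with no minimum of UMIs, the log2 folds of the medians ran from -0.15 in library 2 to 0.23, with a median of 0.15, and Malat1 lost its call in this class, an alternative chosen after seeing the data. The upper end differed instead. The 90th percentile was 41432, 38623, 39125 and 54806 CPM, compared with 7706 to 10150 CPM in kept cells. Depth differs between these classes, and low depth alone widens the spread of a share. With each barcode reduced at random to 500 UMIs, the 95th percentile was 29, 32, 31.4 and 37.75 Malat1 UMIs in this class. In kept cells it was 6, 6, 7 and 8. In the high-mitochondrial class the median itself was higher, at 8962, 7159, 8353 and 8517 CPM (median log2 fold 1.14 over all barcodes of the class).

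**Figure D3:**
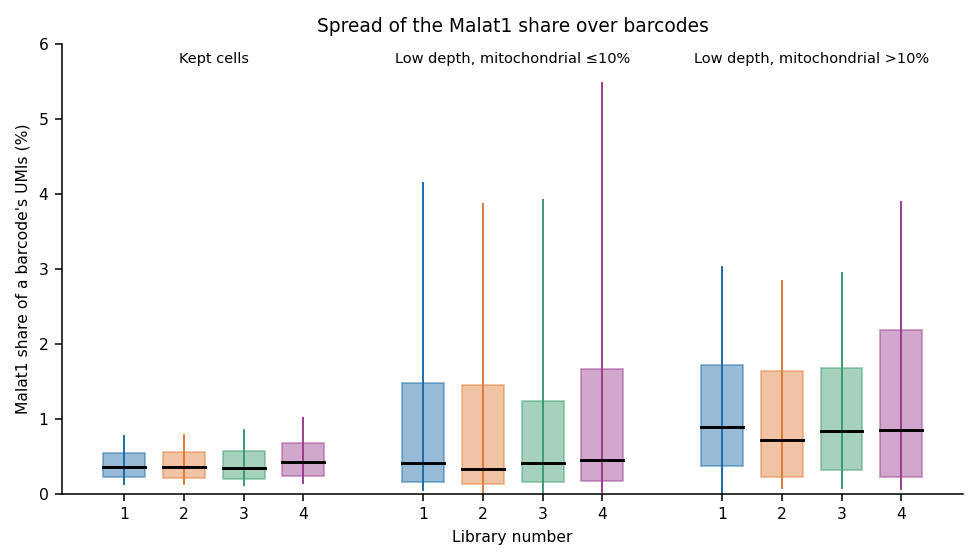
Malat1 share of a barcode's UMIs in percent, for barcodes with at least 500 UMIs of libraries 1 to 4 in 3 classes. Black lines are medians, boxes span the quartiles and whiskers the 10th to 90th percentiles, and the low-depth, low-mitochondrial class has medians near those of kept cells under much longer upper whiskers, which end at 38623 to 54806 CPM in place of 7706 to 10150 CPM. Barcodes are shown at their own depth, so whiskers of the low-depth classes also hold more sampling spread.

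To describe that upper end, the quintile of barcodes with the highest Malat1 share was set beside the rest of the same class. In the low-depth, low-mitochondrial class this quintile had a median Malat1 share of 4.19, 3.90, 3.92 and 5.50% against 0.285, 0.248, 0.293 and 0.319% in the rest, and it held 38.3, 72.4, 52.8 and 73.7% of the class's Malat1 UMIs. Its ribosomal protein share was lower in every library, with medians of 14.3 to 16.3% against 25.4 to 28.1%. Its mitochondrial share was 2.25 and 2.36% against 4.94 and 4.47% in libraries 1 and 3, but 3.97 and 3.18% against 3.51 and 1.91% in libraries 2 and 4. Depth also differed in direction, with median UMIs of 856 and 971 against 4846 and 4013 in libraries 1 and 3, and 1868 and 1787 against 1026 and 1261 in libraries 2 and 4. The part of these values was not tested.

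Neat1, which was not used in the ranking, was higher in the same quintile by log2 1.65, 2.46, 2.61 and 2.44 on 17, 85, 80 and 74 counts, with Malat1 left out of the totals. The 14 other nuclear long non-coding RNAs, summed, were higher as well, by 3.77, 1.40, 2.15 and 2.04 on 1384 to 3550 counts. This sum includes Gm26917, which had the largest median fold of all genes in the class. Against kept cells it was at log2 3.24, 3.69, 2.83 and 3.30 over the whole class. Its part in the sum was not separated, so the sum need not describe the other RNAs of the list. Snhg12 was also higher, by 1.48, 1.45, 1.504 and 1.498. Snhg1 was at 0.54, 1.35, 1.46 and 1.27, Snhg3 at 1.83, 1.41, 0.77 and 1.03, and Gas5 at 0.73, 0.75, 0.54 and 0.80. The interval of the Snhg1 fold in library 1 held 1 (0.987 to 2.06, on 34 counts). Snhg8 varied around a small difference, from -0.10 to 1.04, the latter on 9 counts. Pou5f1, a core pluripotency factor with a spliced, exported messenger RNA, was lower in all 4 libraries, at -0.53, -0.74, -0.60 and -0.74. Srrm2, also read from a spliced messenger RNA, was at 0.90, 0.94, 0.35 and 0.76. Its interval in library 3, on 68 counts, held 1 (0.973- to 1.65-fold). In libraries 1, 2 and 4 the 2 messenger RNAs therefore did not share a direction. The same ranking of kept cells gave smaller differences of 0.48, 0.82, 0.53 and 0.86 for Neat1 and at most 0.51 for a host RNA.

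Within the low-mitochondrial barcodes, the Malat1 level varied with depth differently in the libraries. Between 1000 and 2000 UMIs it was 16542, 21586, 14993 and 23679 CPM, and between 16000 and 32000 UMIs 4247, 4205, 4405 and 5291 CPM. Below 1000 UMIs it was 27996 and 28788 CPM in libraries 1 and 3 but 3167 and 6229 CPM in libraries 2 and 4. Neat1 showed the same break, with 10 and 20 counts (138 and 199.7 CPM) below 1000 UMIs in libraries 1 and 3, and 8 and 1 counts (34.5 and 5.13 CPM) in libraries 2 and 4. Below 1000 UMIs Gas5 was at 733 and 489 CPM in libraries 1 and 3 against 220 and 369 CPM in libraries 2 and 4, and Snhg1, Snhg3 and Snhg12 were also higher in the former, on 13 to 40 counts each. Snhg8 had the opposite order, at 41.5 and 59.9 against 121 and 159 CPM, on 3 and 6 against 28 and 31 counts. Neat1, Gas5, Snhg1 and Snhg8 had these orders in kept cells as well.

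Levels by cell state were then measured. Kept cells were clustered without the members, the other host genes or the other nuclear RNAs, so the states do not rest on them. State 1 (13439 cells, led by Slc11a1, Catip and Catsperz) and state 2 (7024 cells, Spic, Gm38414 and Sgo2b) had the highest naive panel, at 1948 and 1850 CPM. State 4 (3652 cells, Gm45752, Plac8 and Lypd2) was at 1547 CPM. State 3 (5217 cells, Spon1, Fgf5 and Slc35d3) had the naive panel at 391 CPM and the formative panel at 2367 CPM. State 5 (2605 cells, Gzme, Ctla2a and Acta2) had 528 CPM of the naive panel and 2665 CPM of 6 keratin and contractile genes, and a state of 52 cells was left out. States followed libraries: state 1 was found in libraries 1 and 3, state 2 in library 2 with 185 cells of library 4, state 3 in libraries 2 and 4, state 4 in library 4, and state 5 mainly in library 3. Each state was therefore compared with the largest state of the same library, in 9 units of at least 100 cells.

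Neat1 was the member that differed most between states. It was lower in the states with little of the naive panel, and this held in all 4 libraries. In library 1 it was at 36.2 CPM (35.2 to 37.2) in state 1 and 20.03 CPM (17.6 to 22.6) in state 5, or 0.554-fold (0.486 to 0.628). In library 2 it was at 30.3 CPM in state 2 and 16.9 CPM in state 3, or 0.558-fold (0.515 to 0.605). In library 3 it was at 40.3 CPM in state 1 and 26.8 CPM in state 5, or 0.665-fold (0.627 to 0.705). In library 4, where state 3 was the largest at 18.6 CPM, Neat1 was 1.58-fold (1.48 to 1.68) higher in state 4 and 3.11-fold (2.67 to 3.60) higher in the 185 cells of state 2, on 203 counts. All 5 Neat1 comparisons reached 1.5-fold. With states rebuilt on components centred within each library, 4 of 42 member folds reached it, all of them for Neat1, which was not called in every comparison there. As background, 14.0, 10.4 and 11.0% of genes were at least 1.5-fold lower in these comparisons of libraries 1 to 3, and 19.3, 16.1 and 23.6% higher. In states 4 and 2 of library 4, 9.21 and 11.8% were higher by that much and 17.5 and 19.9% lower.

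Malat1 had the opposite order in 4 of the 5 comparisons, none of which reached 1.5-fold. Under 3 other settings of the states (resolution 0.1, members allowed among the variable genes, or cells above 2 times the median UMIs left out), 1 Malat1 fold was at least 1.5-fold higher. With the states as reported, Malat1 was at 4007 CPM in state 1 and 5036 in state 5 of library 1, 4084 in state 2 and 4657 in state 3 of library 2, and 3766 in state 1 and 5158 in state 5 of library 3. In library 4 it was at 5686 CPM in state 3 and 4394 in state 4, but at 7753 in state 2, the highest of all units. Median UMIs per cell were 24925 and 24199.5 in state 5 of libraries 1 and 3 against 18132 and 18497 in state 1, and the part of depth in these folds was not tested.

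In these 5 comparisons, 9.21 to 23.6% of all genes were at least 1.5-fold higher and 10.4 to 19.9% lower. Of the 35 folds over all 7 members, 7 reached 1.5-fold, 4 higher and 3 lower, and 32 had intervals that excluded 1. Beside Neat1, the other 2 were Gas5 and Snhg1 in state 2 of library 4, at 482 and 212.5 CPM against 300.1 and 134 CPM in state 3, or 1.61-fold (1.53 to 1.69) and 1.59-fold (1.47 to 1.71). That unit holds 185 cells, and the Gas5 call was lost when cells above 2 times the median UMIs were left out or components were centred within libraries, and the Snhg1 call in the latter. The other host folds were below 1.5-fold, though Snhg12 passed it in 2 comparisons with mitochondrially encoded and ribosomal protein genes left out of the totals and in 1 at resolution 0.1. Snhg12 had the order of Neat1 in each library, with 117 and 78.5 CPM in states 1 and 5 of library 1, 126 and 106 in states 2 and 3 of library 2, 96.8 and 69.9 in states 1 and 5 of library 3, and 96.8, 128 and 139 in states 3, 4 and 2 of library 4. Its folds ended at 0.670 on the low side (0.628 to 0.714) and 1.44 on the high side (1.31 to 1.58). Gas5 also had this order at smaller folds in libraries 1 to 3 (0.936, 0.843 and 0.826), as had Snhg3 (0.804, 0.854 and 0.717). Snhg8 differed by at most 1.15-fold (1.07 to 1.24), and its levels followed the library, at 57.9 and 66.8 CPM in library 1 but 154.5 to 164 CPM in library 4. Ribosomal protein genes summed over the list were at 0.884 to 0.925 of the reference state in the lower-naive states of libraries 1 to 3, and their part was not tested.

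**Figure D4:**
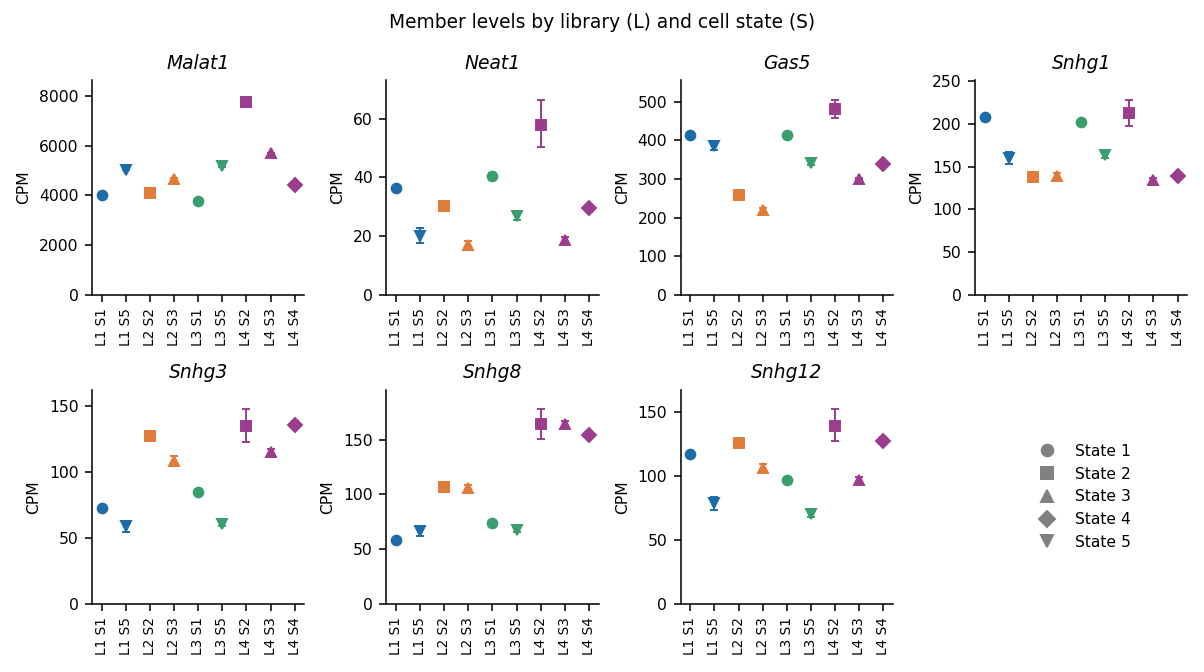
Level of each member in the 9 units of a library (L) and a cell state (S) with at least 100 cells, in CPM with exact 95% Poisson intervals for counting error, coloured by library and shaped by state. Neat1 ranges from 16.9 CPM in state 3 of library 2 to 57.9 CPM in state 2 of library 4, while Snhg8 separates by library.

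To describe the members along continuous scores, the tertile of kept cells with the highest score was compared with the tertile with the lowest in each library, with genes of the score left out of its own comparison. The tertiles are ranges and not cell types. Under the 1.5-fold rule in all 4 libraries, 0 of the 7 members were called for any of 7 scores. Along the naive panel 0.374% of genes were called higher and 3.88% lower, and along the formative panel 1.98 and 0.326%.

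Neat1 went with the naive panel in each library. It was at 42.8 and 29.7 CPM in the highest and lowest tertile of library 1, 31.6 and 23.5 in library 2, 46.3 and 27.4 in library 3, and 30.6 and 15.2 in library 4, or log2 0.52, 0.43, 0.75 and 1.01. All 5 keratin and contractile genes with enough counts were lower in the highest tertile, with summed log2 folds of -4.67, -3.65, -6.58 and -3.30, and their part was not tested. Along the formative panel it had the opposite direction, at -0.51, -0.53, -0.50 and -0.97. Between the highest and lowest quintiles Neat1 was called higher with the naive panel (median log2 0.80, background 1.74%) and lower with the formative panel (median -0.79, background 1.05%). The 25% limit made the same Neat1 calls between tertiles, against 2.87% of genes higher with the naive and 2.12% lower with the formative panel. Snhg12 was at 0.29, 0.18, 0.48 and 0.48 along the naive panel and Gas5 at -0.19, -0.32, -0.27 and -0.29 along the formative panel. Snhg3 and Snhg8 stayed between -0.13 and 0.07 along the latter. Malat1 varied in sign along the naive panel, from 0.32 in library 1 to -0.37 in library 4.

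Malat1 instead went with the G2/M genes, which are expressed before and during division. It was at 4771, 5287, 5008 and 6599 CPM in the highest tertile and 3429, 3281, 3803 and 4069 CPM in the lowest, or log2 0.48, 0.69, 0.40 and 0.70, where 0.799% of genes were called higher and 0.164% lower (2.98% higher at the 25% limit, which Malat1 passed). Along the S genes it was at -0.23, -0.40, -0.40 and -0.50 (background 0.212% higher and 0.299% lower). Snhg1 was lower with the G2/M genes, at -0.40, -0.22, -0.38 and -0.33, and the other members there lay between -0.31 and 0.29. Median UMIs were 22052 to 26042 in the highest and 15660 to 18943 in the lowest G2/M tertile, and the part of depth was not tested. Ranked by UMIs alone, Malat1 was at -0.10, 0.18, -0.12 and 0.12 and Snhg1 at -0.51, -0.19, -0.49 and -0.37, with 0.171% of genes called higher and 0.0854% lower.

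Along the share of ribosomal protein UMIs, the members took opposite directions. Gas5 was at 471, 300.5, 479 and 384 CPM in the highest tertile and 359, 218, 325 and 271 CPM in the lowest, or log2 0.39, 0.46, 0.56 and 0.50. Snhg1 was at 0.35, 0.17, 0.63 and 0.25. Malat1 was lower in the highest tertile, at -0.46, -0.28, -0.55 and -0.76. Snhg3, at -0.28, -0.15, -0.04 and -0.12, did not share the direction of Gas5. Neat1 was at -0.07, 0.47, 0.30 and 0.09. In this comparison 0.154% of genes were called higher and 3.96% lower, and the median over all genes was -0.22. Gas5 passed the 25% limit, against 0.858% of genes. With ribosomal protein and mitochondrially encoded genes left out of the totals, the median log2 fold over libraries was 0.61 for Gas5 (0.48 with them) and -0.37 for Malat1 (-0.51 with them). On the same totals Neat1 had a median of 0.34 (0.20 with them), and Snhg3 was near 0 at -0.0036 (-0.13 with them). The keratin and contractile genes were lower in the highest tertile, with summed log2 folds of -3.46, -1.999, -3.61 and -1.89, and their part was not tested.

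Of the 16 other host genes, 1 was called higher along the ribosomal protein share. It was Zfas1, a host of box C/D snoRNAs with no run at its annotated start under the limits above, at 0.80, 0.61, 1.01 and 0.64. Snhg6 (median log2 fold 0.41) and Epb41l4aos (0.34) came next, and Snhg14, Cwf19l1 and Snhg9 were lowest, at -0.77, -0.35 and -0.30. The median over the list was -0.07, so Gas5 lay above all of these hosts except Zfas1. Along the naive panel 0 of the 16 were called, and they ran from Snhg14, Snhg18 and Snhg10 at -0.68, -0.65 and -0.18 to Snhg15, Zfas1 and Snhg20 at 0.37, 0.37 and 0.47. Of the 11 other nuclear RNAs, 0 were called along the naive panel and 1 was lower along the ribosomal protein share. Along the mitochondrial share Neat1 was at 0.27, 0.42, 0.31 and 0.39, and 0.0% of genes were called higher and 0.383% lower. The keratin and contractile genes were lower in the highest tertile, with summed log2 folds of -4.48, -0.96, -3.003 and -1.48 and 4 of 5 called, and the naive panel had sums of 0.21, 0.16, 0.58 and 0.43. Their part was not tested.

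**Figure D5:**
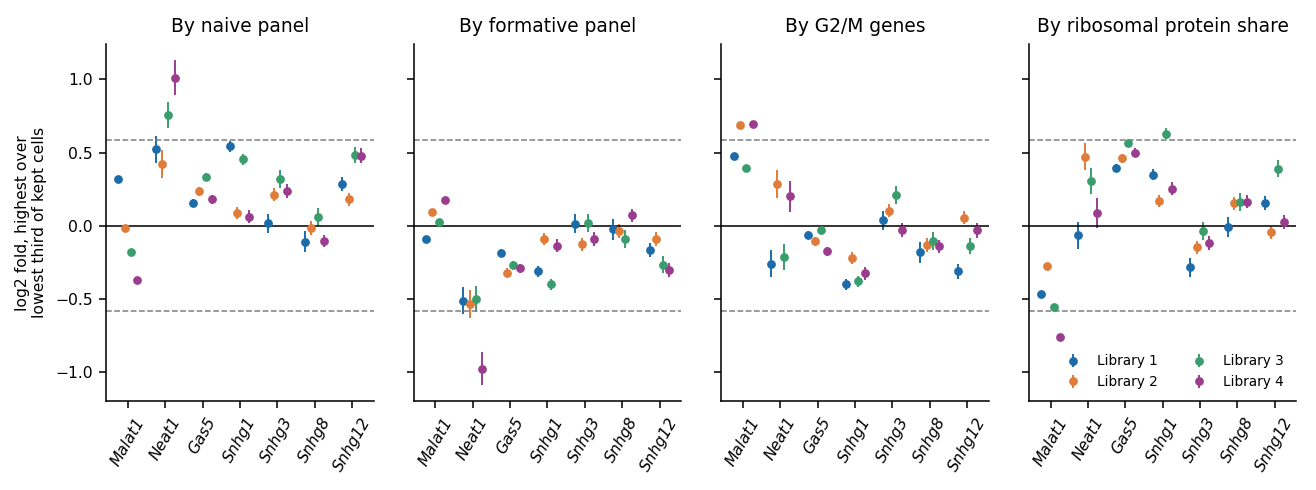
Log2 fold of each member between the highest and the lowest tertile of kept cells of each library, ranked by the share of UMIs in 4 gene lists, with 95% intervals for counting error and dashed lines at 1.5-fold. Neat1 lies above 0 along the naive and below 0 along the formative panel in all 4 libraries, Malat1 above 0 along the G2/M genes and below 0 along ribosomal protein genes.

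Spread between single cells was compared after each kept cell was thinned to 5000 UMIs, which left out 0 cells. Malat1 was detected in 99.5 to 99.8% of cells, with a median of 17 to 21 UMIs and a variance of 11.0, 12.3, 14.8 and 19.6 times its mean in libraries 1 to 4. Its highest cells carried 275 to 341 of the 5000 UMIs. Neat1 was detected in 14.99% (exact 95% interval 14.2 to 15.8), 12.2%, 15.8% and 11.4% of cells, with a variance of 1.13 to 1.24 times the mean. Gas5 was detected in 80.4, 67.4, 82.7 and 76.3% of cells. Snhg1 was found in 55.9, 48.3, 56.2 and 47.8%, with variances of 2.21, 1.40, 1.83 and 1.77 times the mean, the widest among the hosts in each library. Snhg3 was seen in 28.9 to 46.5%, Snhg8 in 25.1 to 54.2% and Snhg12 in 34.2 to 44.5% of cells, each with a variance within 1.02 to 1.16 times the mean, near that of random sampling. No cell type that lacks these RNAs is in the data, so the share due to free RNA was not measured.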

How the data were processed

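Single-cell libraries from 4 mESC samples were aligned to mm10 and counted by the authors with Cell Ranger 6.1.2, joined with the depth of libraries equalised, and deposited as 1 matrix of raw UMI counts per gene and cell, with exonic reads counted. Depth equalisation discards reads of deeper libraries, so UMI totals do not show their sequencing depth. By the rule the study states, barcodes were kept above the library mean minus 1 SD of UMIs and of genes, with at most 10% mitochondrial UMIs, which left 31989 of 41142, a number that differs from the one the study gives. Levels were computed as CPM from summed counts (Python 3.11.15, numpy 2.4.6, scipy 1.17.1), with exact 95% intervals. Genes under 200 counts over both classes in any library were not compared.

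States were Leiden clusters (leidenalg 0.10.2, resolution 0.2, 20 components of 2000 variable genes, 20 neighbours), in place of Louvain clustering and Harmony, and states under 2% of kept cells were left out. No doublet caller was run, and an alternative left out the 1615 cells above 2 times their library's median UMIs. No test between groups was made because library numbers carry no labels. The named genes are mainly all members, Srrm2, Pou5f1, the leading 3 genes of each state, the 3 genes with the largest and the 3 with the smallest median log2 fold of a list, and for each member the 3 genes with the most similar levels. Also named were Snhg14, for its library range, and the genes with the largest folds over all genes in the low-depth, low-mitochondrial class. The members and gene lists were chosen with earlier results of these data known. RefSeq start sequences were found for 6 of the 7 members, Neat1 being the exception.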

Additional observations from a re-analysis of the deposited data

How the results depend on the processing

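No paired analysis was possible because the library numbers carry no labels and no comparison between groups was made. Median-of-ratios size factors left 3 of 7 members with their libraries in the reported order, and raised the members with a range of at least 1.5-fold from 3 to 5. With a limit 25% above 1 in place of 50%, members called higher rose from 2 to 4 in the low-depth, low-mitochondrial class (Snhg1 and Snhg12 added), from 2 to 3 in the low-depth, high-mitochondrial class (Snhg3, as also without mitochondrially encoded and ribosomal protein genes in the totals), from 1 to 2 in barcodes of good depth with a high mitochondrial share (Snhg3), and from 0 to 1 along the ribosomal protein share (Gas5), the naive panel (Neat1) and the G2/M genes (Malat1), and members lower along the formative panel from 0 to 1 (Neat1). Highest against lowest quintiles also gave 1 higher along the naive and 1 lower along the formative panel, both Neat1. Filter limits on log10 values gave 2 members in the good-depth, high-mitochondrial class. Leaving out each library in turn gave 1 to 3 there, and 2 to 3 in each low-depth class. Components centred within libraries lowered the share of member folds between states that reached 1.5-fold from 20% to 9.52%. Without thinning, member-by-library pairs with a variance of at least 1.5 times the mean rose from 9 to 25 of 28. The causes of these changes were not tested. Of the counts recomputed, 166 stayed within 1.5 times those reported, the changes from 2 to 3 included. Many of these were 0 under both settings. Among 843 recomputed single values, 99 levels moved by more than their counting interval. Reversal was counted only for folds of members called under either setting, and there 0 medians over libraries reversed. Levels, ranges and folds without a call could not show it. With medians over barcodes, Malat1 lost its call in the low-depth, low-mitochondrial class, and in library 2 its log2 fold went from 1.82 to -0.15. Neat1 below 1000 UMIs rests on at most 20 counts a library, and counting intervals do not cover the spread between cultures.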

Other observations

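The genes whose levels over the 9 library-by-state units were most like those of each member were named by Pearson's r of log2(CPM + 1) among 5377 genes with a mean of at least 20 CPM. These units share 4 libraries, and with so few units and so many genes high values of r are common, so they are a description with no test. Malat1 was most like Pdxdc1 (r = 0.947), Bach1 (0.941) and Mapkap1 (0.934). Neat1 was most like Top3b (0.995), a topoisomerase, Ogt (0.955), which adds O-linked N-acetylglucosamine to proteins, and Gle1 (0.952), a messenger RNA export factor. Gas5 was most like 2410006H16Rik (0.912), Akap8l (0.909) and Ik (0.904), and Snhg1 like Smg6 (0.968), the endonuclease of nonsense-mediated decay, Tigd2 (0.957) and Akap8l (0.951). Snhg3 was most like mt-Nd6 (0.998), Pes1 (0.991), a ribosome biogenesis factor, and Zcchc8 (0.983), a part of the nuclear exosome targeting complex. Snhg8 was most like Mrpl52 (0.987), Tomm7 (0.983) and Cebpz (0.977), and Snhg12 like Arid4a (0.987), Elavl2 (0.986) and Taf8 (0.982). Among the members themselves, r was 0.837 for Gas5 with Snhg1, 0.890 for Snhg3 with Snhg8 and 0.821 for Snhg3 with Snhg12, but 0.178 for the neighbours Malat1 and Neat1.

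Over single cells thinned to 5000 UMIs, Malat1 and Neat1 were correlated at 0.104, 0.152, 0.115 and 0.136 in libraries 1 to 4, and Gas5 and Snhg1 at 0.182, 0.152, 0.152 and 0.262. Such values are weak in counts this sparse and are given as values only. Ranked by variance standardised for mean level over all kept cells, Malat1 stood at 190, Snhg1 at 464, Neat1 at 897 and Gas5 at 1641, within the 2000 most variable genes, while Snhg8, Snhg12 and Snhg3 stood at 2050, 3710 and 3929.

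The genes with the largest median log2 fold in the low-depth, low-mitochondrial class were Gm26917 (3.27), AY036118 (3.03), Aqp3 (2.74), Gm42418 (2.67) and Xist (2.63), named after their values were seen. Whether their counts come from separate RNAs was not tested. In the low-depth, high-mitochondrial class, the quintile of barcodes with the highest Malat1 share had more Neat1 by log2 0.69, 1.56, 1.08 and 1.70 in libraries 1 to 4 and more Snhg12 by 0.53, 0.81, 0.81 and 0.84.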
